A study of Mus musculus with 3 samples.

Results

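Potassium channel genes were described in 3 sections of mouse brain measured with 10x Visium, an array of barcoded spots that capture polyadenylated RNA, in which each captured molecule is counted once through its unique molecular identifier (UMI). The members were all genes whose symbol starts with Kcn and whose level, averaged over the 3 sections, was at least 5 CPM (UMI counts scaled to a total of 1000000). They numbered 57 of the 99 Kcn symbols in the files, and 10895 of 31053 genes in all reached the same minimum. Each group had 1 section of a C57BL/6J brain, fresh frozen and cut at 10 µm. Y-Ctrl and O-Ctrl carry the treatment label Control and O-Ex the label Exercise. The series concerns exercise and brain aging, but the sources used here state neither ages, nor what the exercise was or how long it lasted, nor how many animals were used. No allele or transgene is named. Every value below rests on 1 section, so section and group cannot be told apart, and no test between groups was possible.

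Potassium channels let potassium ions pass through the membrane, set the resting potential and end action potentials. Voltage-gated (Kv) channels open on depolarization and are built from pore-forming alpha subunits, with silent alpha subunits and cytoplasmic or transmembrane auxiliary subunits that alter their gating. Inward rectifiers and two-pore leak channels act near rest, in neurons and in glia, and calcium- and sodium-activated channels follow the ions that enter during firing.

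The sections held 62348064 (Y-Ctrl), 58234443 (O-Ctrl) and 53196124 (O-Ex) UMIs, of which 97.5 to 98.1% lay in spots of at least 3000 UMIs. Those spots numbered 3409, 3498 and 3332, with medians of 15718, 14900 and 13685 UMIs. A spot may cover several cells of different types. Spots were sorted by 16 region marker lists that contain no Kcn gene, and 6589 of 10239 spots passed the minimum score, of which 1375 lay within 0.1 above it. The groups carry the names of their lists and are not cell types. The 14 groups with at least 25 spots and every own marker detected in all 3 sections were used to compare regions. A highest, leading or lowest group named below is the one among these 14. Habenula was left out because its markers Gpr151 and Pou4f1 had no counts in O-Ctrl and O-Ex, and striatum because O-Ex held 9 such spots. Numbers of spots differed between sections, with 446, 222 and 209 in the thalamus group and 38, 35 and 114 in the choroid plexus group. A shared group need not hold the same part of a region in each section. In hypothalamus spots of Y-Ctrl, O-Ctrl and O-Ex the marker Pmch was 5612, 255 and 101 CPM, while the marker Resp18 was 1401, 1433 and 1254 CPM. Wherever 3 values follow one another below, they are those of Y-Ctrl, O-Ctrl and O-Ex in that order, and ranges in brackets are exact 95% Poisson intervals, which cover counting error only.

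Many members were regional. A member was called concentrated when the same group was highest in all 3 sections and was each time at least 2-fold above the mean of the 14 groups. This held for 28 of the 57 members (49.1%), against 21.1% of the 10804 genes outside the marker lists. Of these 28, 9 were concentrated in thalamus, 4 each in hippocampal CA1 and cortical layer 4, and 3 in dentate gyrus. Upper cortical layers, hypothalamus and choroid plexus held 2 each, and white matter and ependyma 1 each. No member was concentrated in cortical layer 5, layer 6, CA3, meninges or arterial smooth muscle. Thalamus was the highest group in all sections for 17.5% of members and for 5.2% of genes. At the other end, choroid plexus was the lowest group in all sections for 21 members, and for 16.5% of genes. The choroid plexus marker Ttr, the transthyretin gene, alone took 216900, 190700 and 192700 CPM there, which lowers the CPM of every other gene in that group. The members' profiles over groups also repeated between sections: for 46 of 57 the lowest of the 3 pairwise Pearson r between sections was over 0.8, and the median of that lowest r was 0.89, against 0.74 for all genes. Where a level is lower in a group, fewer cells of a type and less RNA per cell cannot be told apart.

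**Figure D1:**
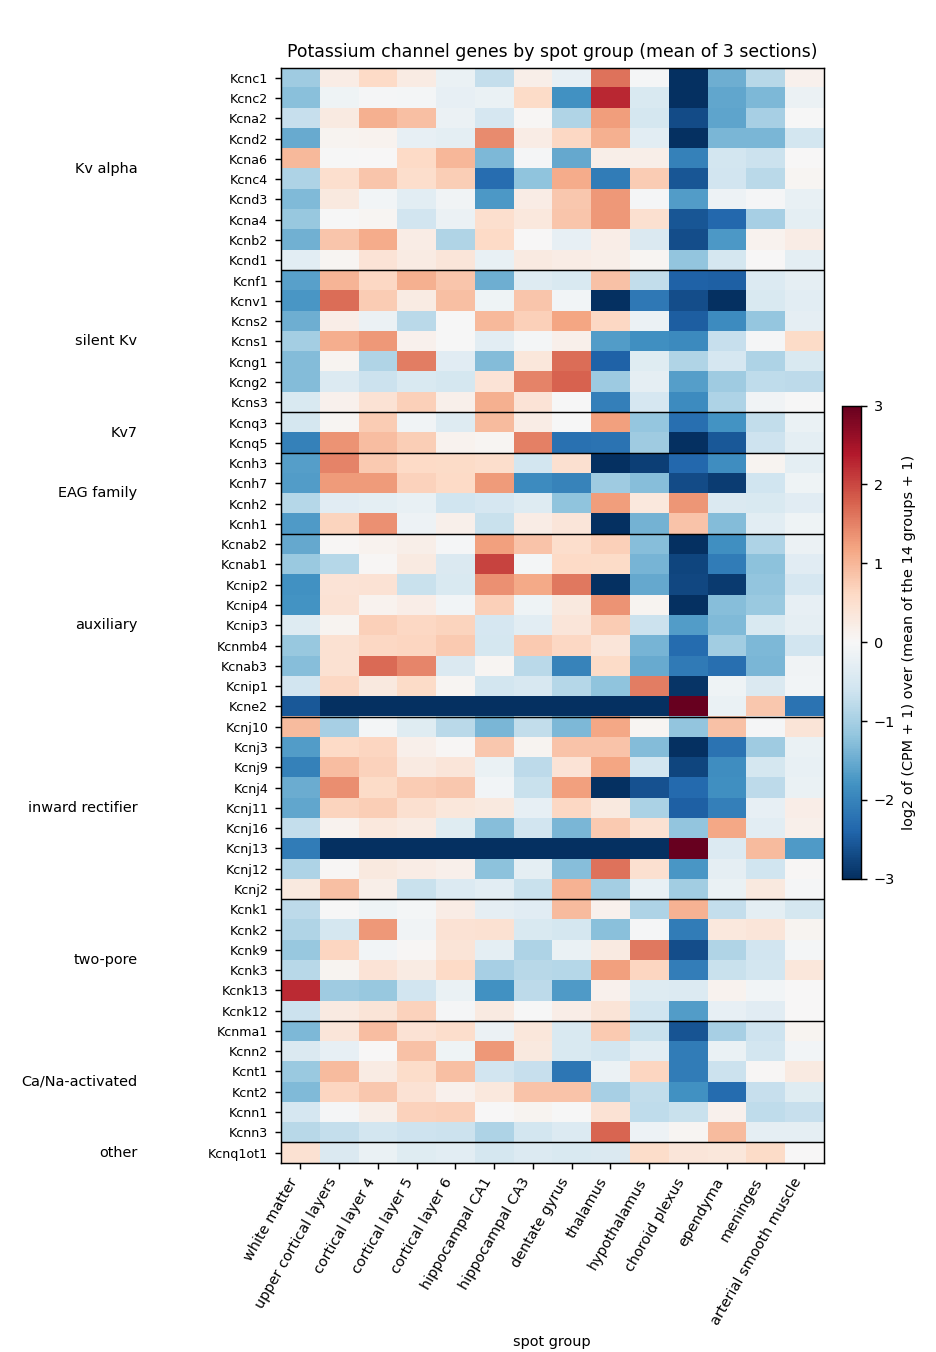
Levels of 54 members (rows, by class) in the 14 spot groups (columns), averaged over the 3 sections. Colour is log2 of (CPM + 1) over (the mean of the 14 groups + 1), limited at 3 in either direction; the thalamus column holds the most red among Kv alpha genes, and Kcnj13 and Kcne2 stand out in choroid plexus.

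Among the 12 Kv alpha members, the pore-forming subunits of the Shaker, Shab, Shaw and Shal families, 7 were concentrated and 5 of these in thalamus. Kcnc1 and Kcnc2, Shaw-type subunits known for fast repolarization in neurons that fire at high rates, were the clearest. Kcnc2 stood at 385 (370 to 399.7), 417 (395 to 439.8) and 369 (347 to 393) CPM in thalamus, and at 115, 112 and 138 CPM in CA3, the next group. In each section it was 4.59- to 5.29-fold above the mean of the groups. Kcnc1 was 218, 271 and 253 CPM in thalamus and 97.6, 130.2 and 132 CPM in cortical layer 4. Its Y-Ctrl value in thalamus lay below the intervals of the other sections, but all 3 stood above every other group. The profiles of Kcnc1 and Kcnc2 over the 14 groups had r = 0.889 on the log2(CPM + 5) scale, given as a description.

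Kcna2, a Shaker-type subunit that limits axonal excitability, was highest in thalamus at 151, 171 and 177 CPM, with layer 4 close behind at 141, 136 and 163 CPM. In Y-Ctrl and O-Ex the intervals of these groups overlapped, so their order there is not settled by counting error. Kcna4, an inactivating Shaker-type subunit, was 28.6, 29.9 and 37.7 CPM in thalamus and 1.27 CPM on average in choroid plexus. Kcnd3, a Shal-type subunit of the transient A-type current, was 66.7, 79.9 and 77.2 CPM in thalamus and 8.34 CPM on average in CA1. Its relative Kcnd2 had the opposite order for these groups. Kcnd2 was highest in CA1 at 232, 186 and 220.1 CPM and second in thalamus at 181, 150.0 and 163 CPM, with 6.97 CPM on average in choroid plexus. The r between Kcnd2 and Kcnd3 over the groups was 0.48.

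Kcnc4, a Shaw-type subunit with fast inactivation, led in dentate gyrus at 80.2, 88.9 and 104.7 CPM, where its intervals overlapped those of layer 4 in all 3 sections. The other 5 Kv alpha members, among them Kcna6, Kcnb2 and Kcnd1, were not concentrated. Kcna6, a Shaker-type subunit, was highest in cortical layer 6 in Y-Ctrl and O-Ctrl (119, 117 and 112 CPM) and in white matter in O-Ex (86.0, 108 and 149.6 CPM). In white matter its 3 intervals did not overlap: 77.8 to 94.8, 99.5 to 118 and 137 to 163 CPM. There the summed level of 7 astrocyte markers was 2211, 3264 and 3623 CPM and that of 5 interneuron markers 1197, 697 and 591 CPM. Of these 5, Sst alone was 781 CPM in Y-Ctrl white matter, against 452 CPM there as the mean of the 3 sections. The part of these markers in the Kcna6 values was not tested.

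Silent Kv subunits make no channel alone but join Shab-type subunits and change their gating. Of 7 members 3 were concentrated, each in another group. Kcnv1 was highest in upper cortical layers at 97.0, 85.1 and 101 CPM, against 1.73, 2.20 and 0.753 CPM in thalamus, so the region that led for many Kv alpha genes was near the bottom for this one. Kcns1 led in cortical layer 4 at 30.0, 29.0 and 32.3 CPM, with upper layers at 22.1, 28.5 and 27.2 CPM. Kcng2 led in dentate gyrus at 38.4, 27.0 and 39.8 CPM and was next highest in CA3 at 26.8, 24.2 and 34.6 CPM. Kcnf1 was at 81.6, 76.6 and 81.3 CPM in layer 5. Its means were 77.5 CPM in upper cortical layers, 69.55 CPM in thalamus, the third-highest group, and 6.09 CPM in ependyma, the lowest. Kcng1 had 2 separate high groups, dentate gyrus at 20.9, 27.0 and 38.0 CPM and layer 5 at 21.6, 26.6 and 29.4 CPM, with CA3 next at 10.7 CPM on average. Kcns3 was low, with a mean of 11.9 CPM in CA1 and 0.506 CPM in thalamus.

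The KCNQ subunits carry the M-current, a slow current that neurotransmitters close, and none of the 3 members was concentrated. The profiles of Kcnq3 and Kcnq5 over the groups had r = 0.474. Kcnq3 stood at 127, 138 and 137 CPM in thalamus, its highest group in Y-Ctrl and O-Ctrl, while CA1 was highest in O-Ex. Kcnq5 stood at 77.8, 71.0 and 104.5 CPM in CA3 and 78.1, 75.6 and 75.2 CPM in upper cortical layers.

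Of the 4 members of the EAG, ERG and ELK family, slow channels that open near threshold, 2 were concentrated. Kcnh3 led in upper cortical layers at 104.9, 92.9 and 103 CPM and was 3.31, 3.15 and 3.01 CPM in thalamus. Kcnh1 led in cortical layer 4 at 51.4, 46.5 and 54.7 CPM, was between 0.629 and 1.29 CPM in thalamus, and was second in choroid plexus at 39.9, 33.3 and 32.6 CPM. Kcnh7 had near-equal means in CA1, layer 4 and upper layers, of 83.0, 82.4 and 82.1 CPM. Its highest group nevertheless changed, from upper layers in Y-Ctrl to layer 4 in O-Ctrl and CA1 in O-Ex. Kcnh2, the gene of the ERG channel that also repolarizes heart muscle, was highest in choroid plexus in O-Ctrl and O-Ex (38.8, 63.0 and 57.3 CPM) and in thalamus in Y-Ctrl (45.4, 51.9 and 52.7 CPM), with overlapping intervals in each section.

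Auxiliary subunits numbered 9, and 7 of them were concentrated. Kcnab1, Kcnab2 and Kcnab3 encode cytoplasmic beta subunits of Shaker-type channels. Kcnab1 was highest in CA1 at 351 (328 to 375), 304 (277 to 333) and 404 (375 to 433) CPM, far above dentate gyrus at 109.5, 134 and 144 CPM. Kcnab2 was also highest in CA1, at 306, 304 and 359.9 CPM, but CA3 followed at 235, 227 and 278 CPM. Kcnab3 instead led in cortical layer 4 at 89.0, 108 and 90.3 CPM and was low in ependyma at 2.13, 5.98 and 7.55 CPM. The Kv4-interacting calcium sensors differed in the same way. Kcnip2 led in dentate gyrus at 273, 263 and 275 CPM and was lowest in thalamus at 11.2, 8.18 and 9.79 CPM. Kcnip4 led in thalamus at 195, 163 and 175 CPM and was lowest in choroid plexus. Kcnip1 led the 14 groups in hypothalamus at 46.2, 45.1 and 57.9 CPM, with upper layers next at 23.3, 28.8 and 24.7 CPM. In habenula spots, outside the 14 groups, Kcnip1 was 187, 52.3 and 58.4 CPM. Kcnip3 was even across thalamus and cortex, with means of 89.2 CPM in thalamus, 86.2 in layer 4 and 83.6 in layer 6.

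Channel and partner could be set side by side, as a description over 14 groups that share libraries and depth. Kcnd2 and Kcnip4 were each other's nearest member of the 56 others, with r = 0.953, while Kcnd2 had r = 0.603 with Kcnip2 and 0.649 with Kcnip3. Kcnd3 had r = 0.209 with Kcnip1. Kcna2 had r = 0.725 with Kcnab2 and 0.602 with Kcnab1, which had ranks 21 and 27 in likeness to it. Over all 1596 pairs of members the median r was 0.374. Kcnma1, the large-conductance calcium-activated channel, was the nearest member to its neuronal beta subunit Kcnmb4, with r = 0.862, while Kcnmb4 had rank 10 for Kcnma1.

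**Figure D2:**
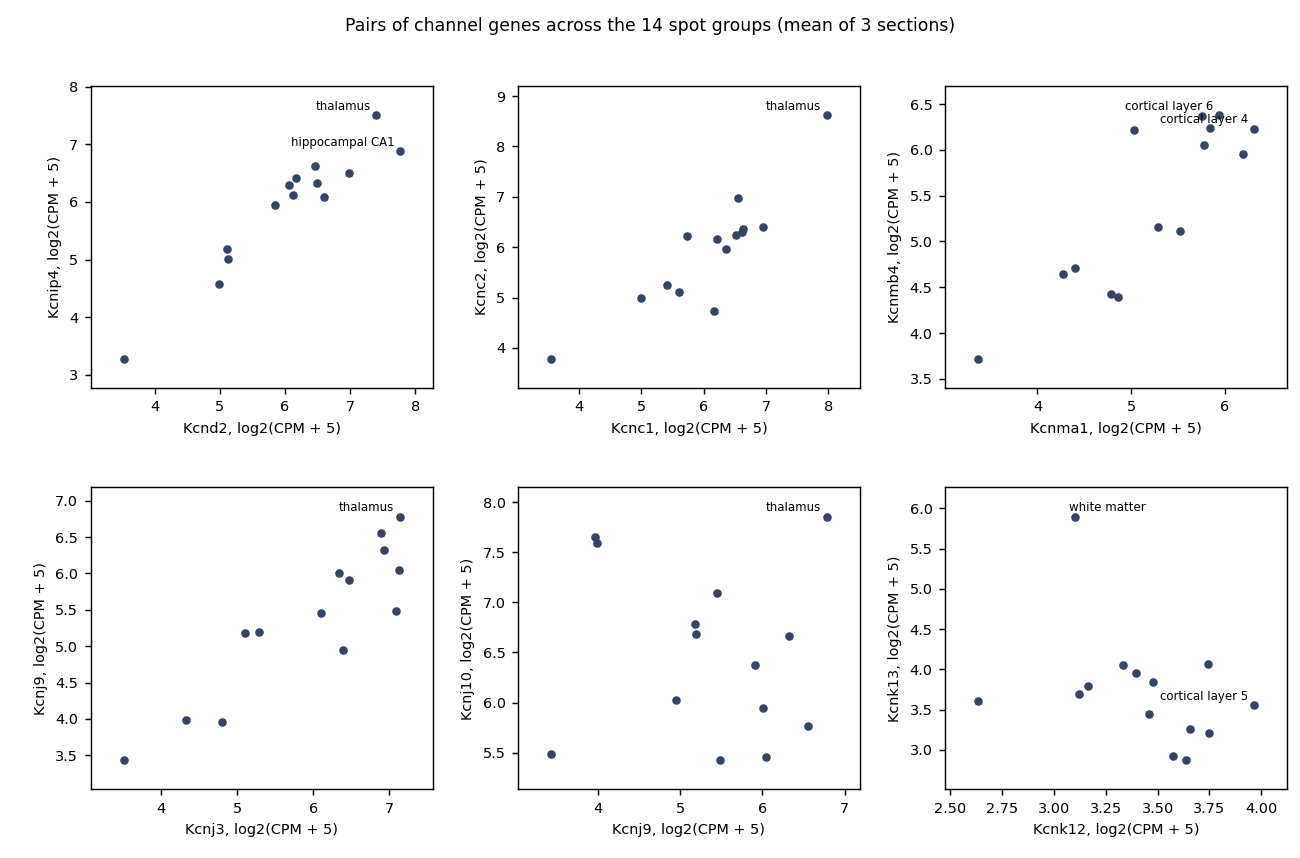
Each panel plots 2 channel genes against each other over the 14 spot groups, as log2(CPM + 5) averaged over the 3 sections, with the highest group of each axis named. Kcnd2 and Kcnip4 lie along a line (r = 0.953), whereas the neighbours Kcnj9 and Kcnj10 (r = -0.096) and the relatives Kcnk12 and Kcnk13 (r = -0.374) do not. The Kcnk12 profile hardly repeated between sections (r from 0.152 to 0.576).

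Of 9 inward rectifiers, channels that pass potassium best near or below rest, 3 were concentrated, and 1 of these, Kcnj13, belongs with the choroid plexus below. Kcnj12, a strong rectifier, led in thalamus at 18.8, 21.4 and 17.3 CPM. Kcnj16 led in ependyma at 36.2 (21.1 to 57.9), 34.4 (21.8 to 51.6) and 29.4 (20.5 to 40.8) CPM on 27, 46 and 72 spots, and these intervals overlap those of thalamus, at 25.01, 25.2 and 26.4 CPM. Kcnj16 protein assembles with that of Kcnj10, the potassium channel through which astrocytes and oligodendrocytes buffer potassium. Kcnj10 was highest on average in thalamus, at 266, 229.9 and 190 CPM. In white matter it was 194 and 196 CPM in Y-Ctrl and O-Ctrl, with an interval of 186 to 215 CPM in O-Ex, where white matter was the highest group. The 3 thalamic intervals, 254 to 278, 214 to 247 and 174 to 207 CPM, did not overlap. The 7 astrocyte markers summed to 2109, 2198 and 2052 CPM in the same spots, and their part in the thalamic values was not tested. Kcnj10 was lowest in CA1, at 34.2, 37.7 and 42.6 CPM, and r with Kcnj16 was 0.707.

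Kcnj9 and Kcnj3 encode subunits of the G protein-gated rectifiers that slow neurons after inhibitory transmitters bind. They had r = 0.903 over the groups. Kcnj9 was highest in thalamus at 97.4, 113.5 and 104.7 CPM and was 6.66, 3.598 and 7.55 CPM in choroid plexus. Kcnj3 was 137, 132 and 137 CPM in thalamus and 136, 133 and 137 CPM in dentate gyrus, so these groups were not told apart by counting error. Kcnj4, a strong rectifier of forebrain neurons, was 89.4, 94.2 and 94.5 CPM in upper layers and 1.87, 1.26 and 3.01 CPM in thalamus. Kcnj11, the pore of the channel that ATP closes, had means of 25.3 CPM in layer 4 and 1.89 CPM in choroid plexus, and its highest group changed between sections. Kcnj9 and Kcnj10 are neighbours on mouse chromosome 1, in opposite directions with 11.9 kb between them: Kcnj9 spans chr1:172320501-172329318 on the minus strand and Kcnj10 chr1:172341210-172374085 on the plus strand (GENCODE, mm10). Their profiles over the groups had r = -0.096, and Kcnj10 had rank 52 among the 56 other members in likeness to the profile of Kcnj9. In likeness to the profile of Kcnj10, Kcnj9 had rank 28. The 250 bases before each start are shown because these starts lie so close while the profiles over the groups differ, although both genes had their highest mean in thalamus, with matches to 4 short motifs in capitals. They are from RefSeq, build GRCm38.p6, 5′ to 3′ on the gene's strand, chr1:172329323-172329572 (minus) for Kcnj9 and chr1:172340960-172341209 (plus) for Kcnj10.
Kcnj9: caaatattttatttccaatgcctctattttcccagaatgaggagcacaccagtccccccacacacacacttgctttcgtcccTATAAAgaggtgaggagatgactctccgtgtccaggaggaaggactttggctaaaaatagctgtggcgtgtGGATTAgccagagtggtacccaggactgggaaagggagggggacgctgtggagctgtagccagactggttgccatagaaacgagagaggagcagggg
Kcnj10: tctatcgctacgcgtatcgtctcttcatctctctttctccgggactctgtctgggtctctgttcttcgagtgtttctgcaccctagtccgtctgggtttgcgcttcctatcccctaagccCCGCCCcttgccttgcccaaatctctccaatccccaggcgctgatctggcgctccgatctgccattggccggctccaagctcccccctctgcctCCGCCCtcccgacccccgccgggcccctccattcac
The capitals in Kcnj9 are TATAAA, the TATA box letters, 168 bases before the start, and GGATTA, 97 bases before it. GGATTA is the reverse complement (the other strand) of TAATCC, the core bound by Otx homeodomain factors. In Kcnj10 the capitals are CCGCCC, the reverse complement of the GC box GGGCGG, 130 and 36 bases before the start. The Kcnj10 stretch is 62.0% G and C and that of Kcnj9 52.0%, against a median of 58.8% over 62 upstream stretches of 40 matched members and 52.4% over all 32851.

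**Figure D3:**
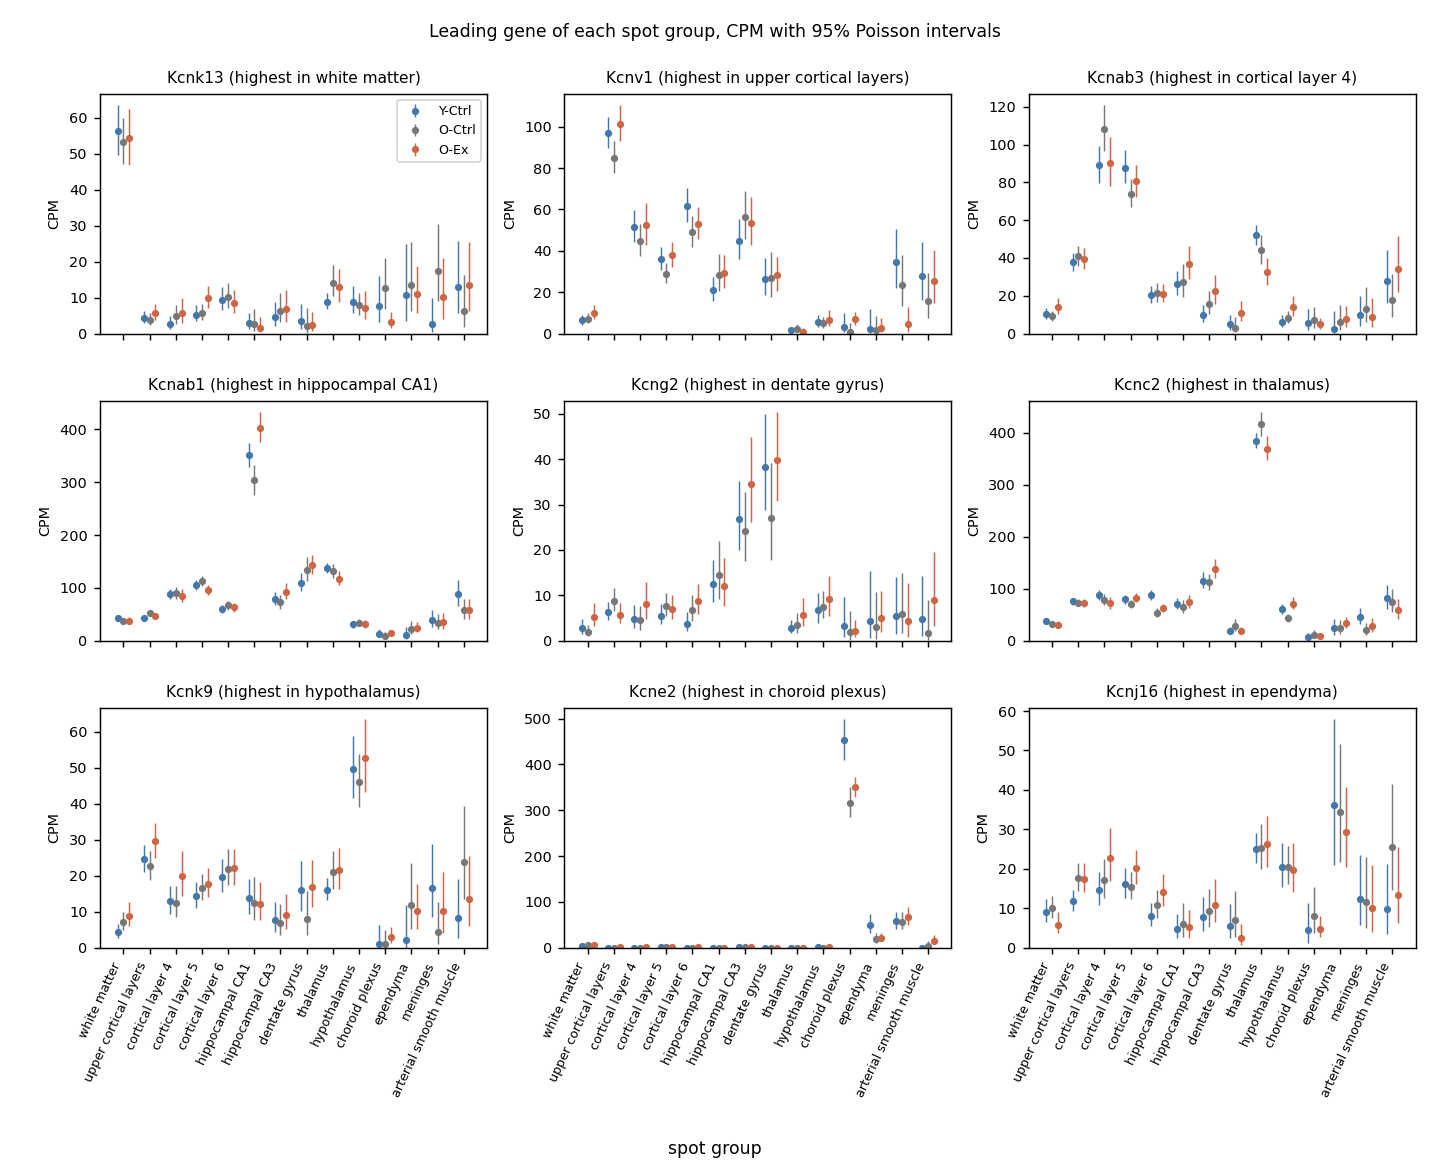
CPM of 9 concentrated members in the 14 spot groups of each section, with exact 95% Poisson intervals; each is the member with the highest lowest fold among those concentrated in that group. By the rule that selected these members, the same group is highest in all 3 sections in every panel, for example Kcnk13 in white matter at 53.3 to 56.3 CPM.

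Choroid plexus, the epithelium that secretes cerebrospinal fluid, had the steepest member profiles. Kcnj13 encodes a weak rectifier of the apical membrane of this epithelium, and Kcne2 a single-span subunit that assembles there with KCNQ and Shaker-type channels. Kcnj13 was 312 (276 to 350.4), 322 (290 to 357) and 375.5 (354 to 398) CPM in choroid plexus spots. In dentate gyrus spots Kcnj13 had 0, 0 and 1 counts. Kcne2 was 453 (410 to 499), 317 (284 to 352) and 351 (330 to 373) CPM in choroid plexus spots and had no count in dentate gyrus, where 3 counts would be 2.09, 2.996 and 1.75 CPM. Each was more than 10-fold above the mean of the groups in every section, at 10.3- to 11.3-fold for Kcnj13 and 10.6- to 11.2-fold for Kcne2. Meninges came next, at 35.7, 75.7 and 75.6 CPM for Kcnj13 and 57.7, 56.8 and 66.9 CPM for Kcne2. Choroid plexus spots had a median score of 0.506 on the meninges marker list. In meninges spots the highest median score on another list was 0.145, for arterial smooth muscle. The part of mixed tissue in the meninges levels was not tested. The profiles of Kcnj13 and Kcne2 over the groups had r = 0.998, the highest of any member with its nearest other member. Kcnk1, a weak leak channel, was also highest in choroid plexus, at 226, 205 and 220.0 CPM, but its dentate gyrus level of 206, 193 and 209 CPM lay within the counting error of it.

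The upstream stretches of Kcnj13 and Kcne2 are printed because these members share the sharpest profile. Kcnj13 lies at chr1:87386363-87394729 on the minus strand and Kcne2 at chr16:92292389-92298129 on the plus strand. The stretches are chr1:87394730-87394979 (minus) and chr16:92292139-92292388 (plus, the first of the starts listed), from the same RefSeq table and with motif matches in capitals.
Kcnj13: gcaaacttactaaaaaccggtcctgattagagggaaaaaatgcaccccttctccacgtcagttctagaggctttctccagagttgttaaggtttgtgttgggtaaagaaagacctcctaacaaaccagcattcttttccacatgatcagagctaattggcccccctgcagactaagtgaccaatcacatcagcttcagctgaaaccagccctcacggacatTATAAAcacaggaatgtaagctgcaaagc
Kcne2: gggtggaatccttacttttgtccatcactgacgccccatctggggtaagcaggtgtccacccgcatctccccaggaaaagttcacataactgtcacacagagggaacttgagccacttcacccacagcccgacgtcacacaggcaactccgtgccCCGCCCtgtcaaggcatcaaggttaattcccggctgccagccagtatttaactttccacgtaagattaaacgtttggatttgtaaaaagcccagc
Kcnj13 holds TATAAA 29 bases before its start, and Kcne2 holds CCGCCC 95 bases before its start. Both strands were searched for the Otx core TAATCC, the GC box GGGCGG, the TATA box letters TATAAA and the cyclic AMP response element TGACGTCA, and no match overlaps another in the 4 stretches printed. Neither stretch holds TAATCC or TGACGTCA. Over all 32851 upstream stretches, 12.4% hold the TATA letters, 32.7% the GC box, 6.3% the Otx core and 1.5% the cyclic AMP element, and over the 62 stretches of members the shares are 4.8%, 41.9%, 1.6% and 0%. A match is a description of letters and shows no binding.

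Two-pore leak channels, which hold the resting potential, had 4 concentrated members of 6, each in another group. Kcnk13, known from microglia, was 56.3 (49.7 to 63.5), 53.3 (47.2 to 59.9) and 54.2 (46.9 to 62.4) CPM in white matter and 8.77, 14.2 and 12.8 CPM in thalamus, next on average. That was 4.65- to 5.61-fold over the mean of the groups. The profiles of Kcnk13 and its closest relative Kcnk12 had r = -0.374. Kcnk12 had its highest mean, 10.7 CPM, in layer 5, but its profile hardly repeated between sections (r from 0.152 to 0.576). Kcnk2, a mechanically and lipid-gated channel, led in cortical layer 4 at 69.6, 77.6 and 68.9 CPM. Kcnk9 and Kcnk3 are acid-sensitive channels that can assemble with each other, with r = 0.78 here. Kcnk9 led in hypothalamus at 49.5, 46.0 and 52.7 CPM, and Kcnk3 in thalamus at 31.5, 28.3 and 36.5 CPM.

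Calcium- and sodium-activated channels had 2 concentrated members of 6. Kcnn2, a small-conductance calcium-activated channel of the afterhyperpolarization, led in CA1 at 72.0, 56.1 and 85.6 CPM, with layer 5 next at 55.2, 55.9 and 48.2 CPM, and the O-Ctrl values of these groups were the same within counting error. Its relative Kcnn3 led in thalamus at 21.7, 16.0 and 29.0 CPM, followed on average by ependyma at 14.9, 10.46 and 11.8 CPM. Among the 14 groups Kcnma1 was highest in layer 4 in all sections, at 71.1, 72.8 and 79.4 CPM, without reaching 2-fold in each. In the habenula spots of Y-Ctrl, outside these groups, Kcnma1 was 164 CPM. Kcnn1, another small-conductance channel, ranged from means of 4.69 CPM in hypothalamus to 14.9 CPM in layer 6. The sodium-activated Kcnt1 and Kcnt2 had r = 0.273, with Kcnt1 at 1.40, 4.99 and 4.68 CPM in dentate gyrus, where Kcnt2 was 29.3, 26.0 and 25.7 CPM. Kcnq1ot1 is no channel but a long noncoding RNA antisense to Kcnq1, and its profile hardly repeated between sections (r from 0.185 to 0.533).

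Beside the members, lists of other ion transport genes were examined, for which the share of all genes concentrated is again 21.1%. Of 4 hyperpolarization-activated channel genes at or above 5 CPM, 3 were concentrated, among them Hcn2, a pacemaker channel subunit, in thalamus and Hcn3 in hypothalamus. Of 8 voltage-gated sodium channel genes 3 were concentrated, Scn1a in thalamus, Scn3a in dentate gyrus and Scn3b in CA1. Of 9 genes of the sodium-potassium pump 5 were, among them the regulator Fxyd1 in choroid plexus. Of 21 Kv partner genes outside the prefix 8 were, such as the Kv4 partners Dpp6 in hypothalamus and Dpp10 in upper cortical layers. None of the 3 chloride cotransporters was concentrated.

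Averaged over groups, the members differed little between sections. For each member the log2 ratio of CPM + 5 was averaged with equal weight over the 14 shared groups, so that groups of unequal size count alike. A difference within 1 group is diluted in this mean. For O-Ex over O-Ctrl, for example, Kcnj10 was at -1.39 in choroid plexus and at -0.18 over the groups. A mean of 1.5-fold was used to describe a difference. No member passed it for O-Ctrl over Y-Ctrl, where 0.441% of 10895 genes did (0.33% higher and 0.11% lower). None passed it for O-Ex over O-Ctrl, where 0.285% did (0.184% higher and 0.101% lower). Both comparisons share the O-Ctrl section, so a low value there moves them in opposite directions. A smaller size of 0.32 on the log2 scale was also used. At that size 1 member was lower and none was higher for O-Ctrl over Y-Ctrl, against 0.863% and 1.14% of genes. For O-Ex over O-Ctrl 6 members were higher and none was lower, against 2.65% and 0.34% of genes. Of the 6, 1, Kcnj2, reached the 5 CPM minimum only through its O-Ex level, so its direction is partly set by how the members were chosen. The median ratio of the members was -0.03 for O-Ctrl over Y-Ctrl (all genes -0.01) and 0.12 for O-Ex over O-Ctrl (all genes 0.07; 0.06 and 0.00 under TMM scaling).

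For O-Ctrl over Y-Ctrl, 25 of 57 members were above 0, as were 44.6% of genes. The lowest was Kcns2, a silent subunit expressed in forebrain, with 18.5, 13.6 and 15.5 CPM over the whole sections and a ratio of -0.40 (counting interval -0.57 to -0.23). It was lower in O-Ctrl in 11 of the 14 groups. Its largest differences were -1.64 in meninges and -1.84 in arterial smooth muscle, groups of few spots, and without arterial smooth muscle the ratio was -0.29, short of the smaller size, as it was with weights by spots (-0.26). Then came Kcnma1 (-0.30), Kcnd2 (-0.29), Kcnh7 (-0.26) and Kcnb2 (-0.24). Kcnma1 was at -0.18 without ependyma and -0.17 with weights by spots, and Kcnb2 at -0.12 without arterial smooth muscle. Kcnd2 was at 92.1, 66.8 and 74.7 CPM over the whole sections, a ratio of -0.44 without matching of regions, and thalamus and CA1, its leading groups, held fewer spots in O-Ctrl. The highest ratios were those of Kcna6 (0.27, 63.9, 77.8 and 70.9 CPM over the sections), Kcnq1ot1 (0.24), Kcnj13 (0.21), Kcnj16 (0.20) and Kcnt1 (0.19). Kcnj13 was at 0.12 without arterial smooth muscle, and in choroid plexus itself its ratio was 0.05. With weights by spots Kcnq1ot1 was at 0.13 and Kcnt1 at 0.02, and without ependyma Kcnt1 was at 0.11. All 4 EAG-family members were below 0, with a median of -0.08, and 5 of 6 two-pore members were above 0, with a median of 0.08. No member of these classes passed the smaller size.

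For O-Ex over O-Ctrl, 46 of 57 members (80.7%) were above 0, against 70.8% of genes. Scaled by TMM factors, which set the median ratio of all genes to 0.00, the share was 68.4% of members against 50.2% of genes, and by median-of-ratios factors 66.7% against 50.0%. Among the 6 members past the smaller size, Kcnma1 was at 46.2, 39.9 and 48.7 CPM over the whole sections, with a ratio of 0.44 (0.30 to 0.58), higher in all 14 groups. The largest differences of Kcnma1 were 1.17 in meninges, 0.99 in ependyma and 0.82 in choroid plexus, against 0.08 in layer 6 and 0.16 in thalamus. Without matching of regions the Kcnma1 ratio was 0.26, short of the smaller size. Its Y-Ctrl and O-Ex levels were close, and the O-Ctrl section stood below both. Kcnq1ot1 was at 4.51, 5.67 and 10.49 CPM with a ratio of 0.41 (0.23 to 0.58), higher in 13 of 14 groups, and 0.54 without matching of regions.

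Also past the smaller size were Kcnj2, a strong rectifier, at 4.28, 4.56 and 6.56 CPM (ratio 0.36, with the control sections below the 5 CPM minimum), Kcnq5 at 35.9, 30.8 and 35.5 CPM (0.35) and Kcng1 at 7.44, 11.6 and 13.3 CPM (0.33). Without matching of regions the ratios of Kcnj2, Kcnq5 and Kcng1 were 0.27, 0.18 and 0.135, short of that size. Under TMM 3 of the 6 remained past it, Kcnma1 and Kcnq1ot1 among them, and Kcnj2, Kcnq5 and Kcng1 did not. The lowest ratios were -0.18 for Kcnj10, at 107, 100.1 and 90.0 CPM, and -0.18 for Kcnip3, at 57.1, 62.0 and 53.7 CPM, followed by Kcnk2 (-0.13), Kcnj16 (-0.12) and Kcna6 (-0.08). With choroid plexus left out, Kcnj10 was at -0.09, Kcnk2 at -0.07 and Kcna6 at -0.05. With weights by spots Kcnj10 was at -0.09, Kcnj16 at -0.07 and Kcna6 at 0.00, and Kcnj16 was at -0.07 without dentate gyrus or without arterial smooth muscle. By class, 11 of 12 Kv alpha members, 7 of 7 silent subunits and 4 of 4 of the EAG family were above 0, with medians of 0.17, 0.13 and 0.08. Under TMM these counts were 10, 6 and 2, and the medians 0.09, 0.09 and 0.02. Inward rectifiers (5 of 9, median 0.04) and two-pore channels (3 of 6, median 0.04) were about evenly split. Under TMM 4 and 3 were above 0, and both medians were below 0, at -0.04 and -0.01.

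Other transport lists gave these values. For O-Ex over O-Ctrl all 8 voltage-gated sodium channel genes were above 0 (7 under TMM), with a median of 0.27 (0.19 under TMM), led by Scn8a (0.38) and Scn1a (0.34), and for O-Ctrl over Y-Ctrl 1 of 8 was, with a median of -0.05. No gene of this list, of the pump list (medians 0.01 and 0.11), of the hyperpolarization-activated list (0.14 and 0.06), of the Kv partner list (0.00 and 0.11) or of the chloride cotransporter list (0.01 and 0.21) passed 1.5-fold in either comparison. Under TMM the O-Ex over O-Ctrl medians of these 4 lists were 0.02, -0.01, 0.03 and 0.13. Cell markers also moved between the sections. Gfap, an astrocyte filament gene, was at 50.6, 128 and 146 CPM with a ratio of 0.97 for O-Ctrl over Y-Ctrl. In that comparison 4 of 7 astrocyte markers were above 0, with Gja1 lowest at -0.245. Of 5 interneuron markers 4 were above 0, with Sst at -0.52. The medians over astrocyte, vascular, interneuron and excitatory neuron markers were 0.11, -0.10, 0.28 and -0.01. For O-Ex over O-Ctrl these medians were -0.08, 0.10, -0.02 and 0.09, and under TMM -0.16, 0.03, -0.10 and 0.02. Their part in the members' ratios was not tested.

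**Figure D4:**
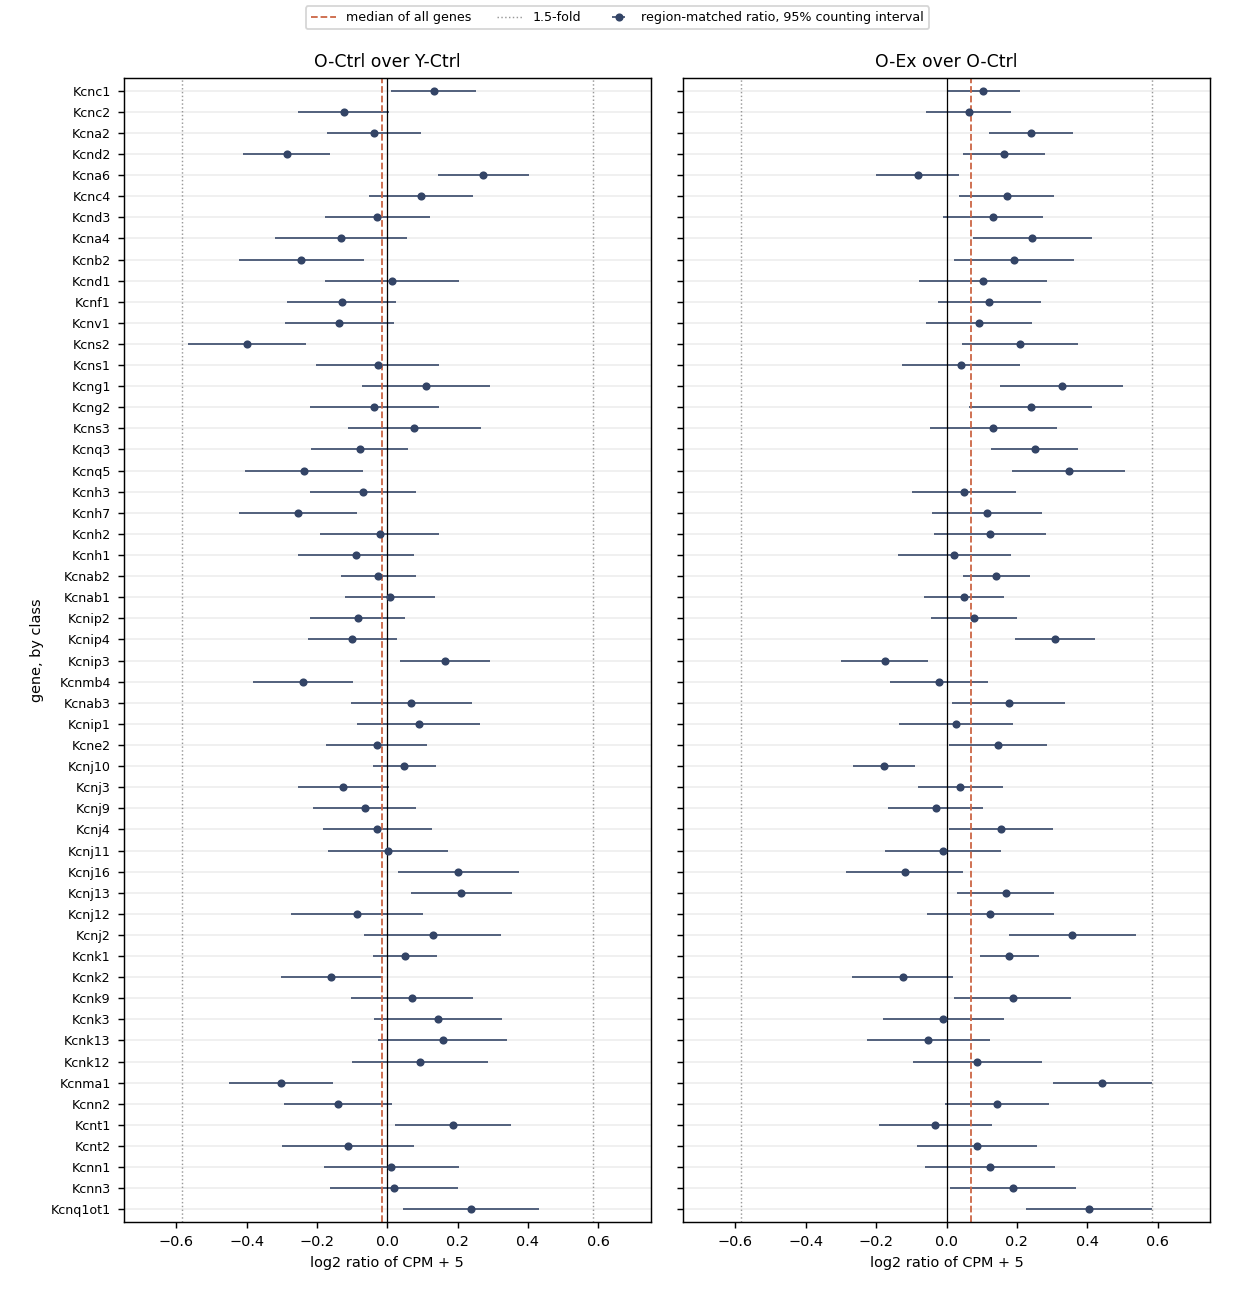
Region-matched log2 ratios of 54 members, O-Ctrl over Y-Ctrl on the left and O-Ex over O-Ctrl on the right, with 95% counting intervals of single sections; dashed lines are the medians of all genes and dotted lines 1.5-fold. No point lies beyond the dotted lines, and 43 of 54 points on the right lie above 0.

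Whole-section levels, in which regions are not matched, were also compared. Over all spots, 2 members passed 1.5-fold for O-Ex over O-Ctrl, against 0.734% of genes, and they were the choroid plexus genes. Kcnj13 was 5.87, 9.32 and 25.7 CPM and Kcne2 8.68, 8.47 and 22.9 CPM over the whole sections, at log2 ratios of 1.10 and 1.05. The choroid plexus group held 38, 35 and 114 spots. Inside that group the O-Ex and O-Ctrl levels were 375.5 and 322 CPM for Kcnj13 and 351 and 317 CPM for Kcne2, and the region-matched ratios were 0.17 and 0.15. Kcne2 in the Y-Ctrl choroid plexus, 453 CPM, was above the intervals of both other sections.

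**Figure D5:**
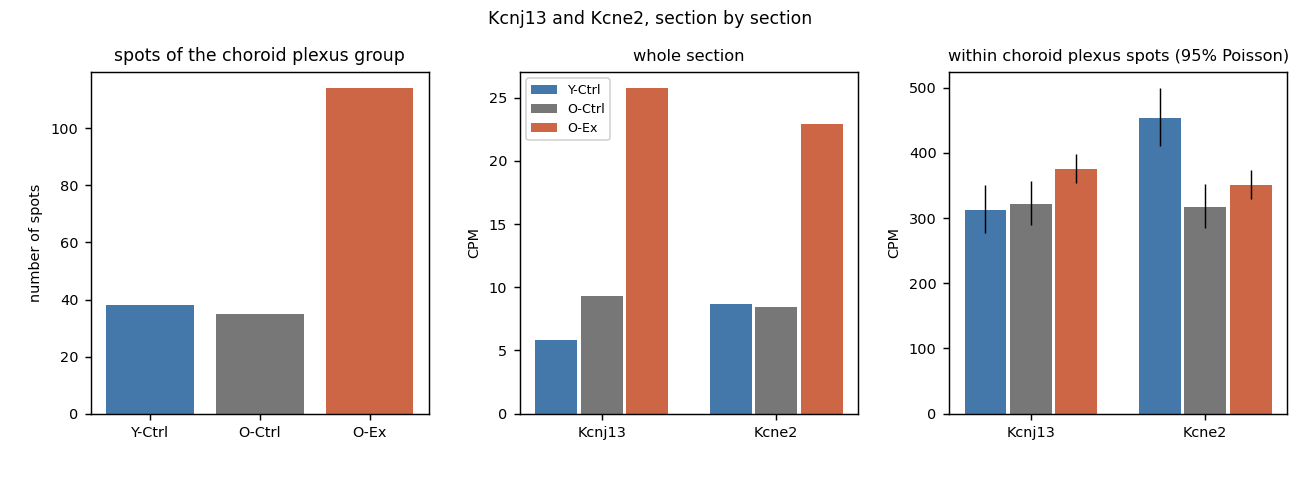
Number of choroid plexus spots (left), CPM of Kcnj13 and Kcne2 over whole sections (middle) and within choroid plexus spots with exact 95% Poisson intervals (right), for each section. O-Ex has 114 such spots against 38 and 35, while the levels within them lie between 312 and 453 CPM.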

How the data were processed

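Raw whole-number UMI counts of 31053 genes at 4992 barcodes per section were deposited by the authors. Per the file headers, Space Ranger 2.0.0 wrote them, against mm10, per the submitters' processing notes. The molecule is labelled as nuclear RNA, while the protocol places intact sections on the array. All 4992 barcodes are shared by the sections, as array positions are. Spots below 3000 UMIs were dropped and no doublet caller was run.

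Each spot was scored on 16 lists of region markers (115 genes) by the mean log of 1 plus counts per 10000. The score was scaled so that the median over spots is 0 and the 99.5th percentile is 1. A spot joined its highest list at a score of 0.5 or more. The scoring rule and the rule for shared groups were chosen after the spots were seen. Members and lists were chosen with earlier results of these data known.

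Counts were summed over spots and expressed as CPM with exact Poisson intervals. Region-matched ratios average log2(CPM + 5) differences over the 14 shared groups, which understates differences of low genes and differences confined to 1 group. Their counting intervals are 1.96 standard errors from Poisson variance. With 1 section per group no test was run. The procedure was also run on simulated counts with Poisson error only, which cannot show how sections of the same group would differ. Named members are the 3 highest of each class, all concentrated members and the 5 highest and 5 lowest ratios per comparison. Kcnd1, Kcng1, Kcnj4, Kcnj11, Kcnk12, Kcnmb4, Kcnn1, Kcns3 and Kcnt2, and values of single groups such as Kcna6 in white matter, fall outside that rule and were named after their values were seen. Some members are counted but not reported singly here. Upstream sequences matched 40 of 57 members by symbol in the RefSeq table, and coordinates and strand come from GENCODE M21. Because counts come from transcript ends, levels were not compared between genes. Python 3.11.15, scanpy 1.11.5 and edgeR 4.0.16 (TMM factors only) were used. Alternatives covered the UMI and CPM minimums, grouping by Leiden clusters, a stricter score, pseudocounts, scaling, weights and each group left out.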

Additional observations from a re-analysis of the deposited data

How the results depend on the processing

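No paired analysis was possible because each group has 1 section and the labels give no replicate numbers. With 1 section per group, depth sets counting error only, and differences between sections may be those of the animal, the plane of cutting or the library, which cannot be told apart from the group. The count of 28 concentrated members was 27 at a minimum of 1000 UMIs, 27 with Leiden clusters made without Kcn genes (20 of the 28 kept, 12 groups), 27 with the stricter score (25 kept, 13 groups), 28 without mitochondrial genes (25 kept) and 25 at a minimum of 10 CPM. At 3-fold it was 10: Kcnab1, Kcnab3, Kcnc1, Kcnc2, Kcne2, Kcng2, Kcnj13, Kcnk13, Kcnn3 and Kcnv1. The count of members past 1.5-fold for O-Ctrl over Y-Ctrl stayed at 0 except at a pseudocount of 1 CPM (1, Kcns2 lower, ratio -0.62) and at the smaller size of 0.32 log2 (1). For O-Ex over O-Ctrl it stayed at 0 except at a pseudocount of 1 CPM (1, Kcnj2 higher, ratio 0.61, a member only through its O-Ex level), over whole sections (2) and at the smaller size (6). The cause of these moves was not tested, beyond that a lower pseudocount shrinks low values less and a smaller size admits more. Of 537 ratios of single named members recomputed under the alternatives, 519 stayed within their 95% counting interval. The alternatives reuse the same sections, so this describes dependence on processing and not how far sections of a group would differ.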

Other observations

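Kcn genes outside the members, or spot groups outside the 14, held a few sharp levels, given as values chosen after they were seen. Kcnmb1, a beta subunit of the large-conductance calcium-activated channel known from smooth muscle, was under the minimum at 1.91, 2.16 and 2.93 CPM over the whole sections (Y-Ctrl, O-Ctrl, O-Ex). In ependyma spots it stood at 87.3, 46.3 and 68.0 CPM on 41, 31 and 81 counts, and ependyma was its highest group in all 3 sections. Kcnn4, a calcium-activated channel of non-excitable cells, was also highest there, at 8.52, 10.46 and 11.8 CPM on 4, 7 and 14 counts.

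In the 88 habenula spots of Y-Ctrl, the only section where all habenula markers were detected, Kcnip1 was 187 CPM (165 to 210.3), 12.4-fold the mean of the 14 shared groups. Kcnma1 was 164 CPM there (4.24-fold) and Kcng4, a silent subunit under the minimum over the whole sections, 64.8 CPM (19.3-fold). In the striatum spots of the control sections, Y-Ctrl and O-Ctrl, Kcna5 stood at 20.4 and 25.2 CPM (12.9- and 11.9-fold the mean of the shared groups), Kcnh4 at 12.7 and 14.8 CPM, Kcnj4 at 90.7 and 111 CPM and Kcnip2 at 220.4 and 218 CPM.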
